A study of Mus musculus with 10 samples.

Results

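The genes described here are 39 parts of the machinery that starts protein synthesis, chosen by their symbols among the 24981 genes of each expression table. They are 20 cytosolic aminoacyl-tRNA synthetases and 19 initiation factors with their binding proteins. The choice went by function and no cut-off on a measured value was used, but earlier results of these data were known when it was made. RNA was sequenced from 2 kinds of innate lymphocyte of BALB/C mice, natural killer (NK) cells sorted from the spleen as NKp46+ and CD3-, and type 1 innate lymphoid cells (ILC1) sorted from the liver as CD3-, NKp46+, DX5dim and TRAIL+. The mice received vehicle or tofacitinib, an inhibitor of Janus kinases, by mouth 2 times a day for 1 week, at 30 mg/kg of tofacitinib. There were 3 vehicle and 2 tofacitinib libraries for each cell type. The cells were pooled across mice, so the error given for a group is the spread between pools. For NK cells the authors pooled 2 mice per tofacitinib replicate and 3 per vehicle replicate, so pool size differed with treatment. The ages of the mice are not given in the sources used here. Values are RPKM, read numbers divided by the exon length of the gene and by the size of the library.

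Aminoacyl-tRNA synthetases join each amino acid to its own transfer RNA and so supply the ribosome. In mammals several of them are held together with scaffold proteins in a multisynthetase complex, while the others work outside it. Initiation factors then bring the first tRNA and the small ribosomal subunit to a messenger RNA: eIF2 carries the initiator tRNA, eIF2B recharges eIF2, eIF3 holds the small subunit, and the eIF4 factors bind and unwind the capped end of the message. In lymphocytes, cytokines and growth signals are known to raise this machinery as cells grow.

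The libraries matched their labels. Eomes, a transcription factor that marks NK cells, stood at 173 to 212 RPKM in splenic NK cells and at 2.4 to 6.3 in ILC1, whereas Tnfsf10, which encodes TRAIL, stood at 51.5 to 84.9 in ILC1 and at 4.4 to 5.3 in NK cells. Libraries held 29199973 to 79258362 alignments. The sequencing run shared by ILC1 vehicle replicate 2 and ILC1 tofacitinib replicate 1 stood apart: its libraries summed to 209768 and 225694 RPKM over all genes, beside 320659 to 348227 in the other ILC1 libraries. Ribosomal RNA reads (Rn45s) were at 5926 and 5549 RPKM there, and at 918 to 1567 in the other ILC1 libraries. ILC1 tofacitinib replicate 1 also carried neutrophil markers that summed to 147 RPKM over 7 genes, against 0.131 to 4.18 in the other ILC1 libraries, and erythroid markers at 249, against 0.953 to 20.0. In NK cells the erythroid markers summed to 44.5 to 203 RPKM with vehicle and to 32.2 and 49.9 with tofacitinib. The 5 B cell markers summed to 59.6 to 91.5 RPKM in vehicle NK libraries and to 74.5 and 97.3 in treated ones. In ILC1 they summed to 5.88 to 10.4 RPKM with vehicle and to 12.9 and 21.6 with tofacitinib, above without overlap. The part of these markers in the results was not tested. The 5 T cell markers summed to 126 to 254 RPKM in ILC1 and 15.1 to 19.7 in NK cells, overlapping between vehicle and treated libraries. Most of the sum was Cd3g, at 118 to 247 RPKM in ILC1 and 10.2 to 14.5 in NK cells. Cd3d was at 2.39 to 6.55 in ILC1 and 3.77 to 5.09 in NK cells, Cd3e at 2.14 to 4.82 and 0.0526 to 0.546, and Cd5 and Cd6 reached at most 0.454 RPKM in any library.

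The sequences around the starts of 4 genes are shown, chosen with their values and motifs known. They are the RNA helicases Eif4a1 and Eif4a2, whose values went opposite ways in NK cells, and the synthetases Aars and Yars, which share a motif. Each sequence is the RefSeq promoter (GRCm38.p6, the mm10 assembly) from 250 bases before to 50 bases after the gene start. It is read 5′ to 3′ on the strand of the gene, and the capitals mark matches to 3 motifs searched on both strands. These were the E-box CACGTG, bound by MYC and related factors, the STAT5 site TTCNNNGAA, and TGATGNAA, the C/EBP-ATF response element (CARE) bound by ATF4 in the amino acid response.
Eif4a1, chr11:69672374-69672673, minus strand: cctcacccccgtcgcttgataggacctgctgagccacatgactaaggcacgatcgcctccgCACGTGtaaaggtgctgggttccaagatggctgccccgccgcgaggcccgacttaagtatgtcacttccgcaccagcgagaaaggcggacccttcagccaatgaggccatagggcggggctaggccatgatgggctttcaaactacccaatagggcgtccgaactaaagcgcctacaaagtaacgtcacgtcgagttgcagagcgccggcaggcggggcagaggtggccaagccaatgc
Eif4a2, chr16:23107218-23107517, plus strand: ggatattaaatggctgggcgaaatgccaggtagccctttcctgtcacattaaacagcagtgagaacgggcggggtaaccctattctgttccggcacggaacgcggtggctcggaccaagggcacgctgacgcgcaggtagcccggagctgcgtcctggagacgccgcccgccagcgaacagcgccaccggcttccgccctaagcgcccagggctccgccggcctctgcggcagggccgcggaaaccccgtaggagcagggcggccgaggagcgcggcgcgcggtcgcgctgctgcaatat
Aars, chr8:111033592-111033891, plus strand: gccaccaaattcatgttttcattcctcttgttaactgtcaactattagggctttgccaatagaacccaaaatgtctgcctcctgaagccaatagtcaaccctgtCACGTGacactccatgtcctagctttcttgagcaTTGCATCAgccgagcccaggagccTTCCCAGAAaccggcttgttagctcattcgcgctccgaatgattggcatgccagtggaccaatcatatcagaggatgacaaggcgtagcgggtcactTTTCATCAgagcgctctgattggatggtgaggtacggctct
Yars, chr4:129189653-129189952, plus strand: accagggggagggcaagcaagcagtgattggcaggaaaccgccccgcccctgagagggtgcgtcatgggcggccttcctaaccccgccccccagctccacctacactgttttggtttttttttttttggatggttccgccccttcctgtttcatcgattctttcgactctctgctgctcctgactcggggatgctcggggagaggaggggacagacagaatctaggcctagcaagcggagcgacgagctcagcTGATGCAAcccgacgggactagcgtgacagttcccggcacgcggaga
The Eif4a1 window held 1 E-box, which began 189 bases before the start, and the Eif4a2 window held none of the 3 motifs. In Aars, the alanyl-tRNA synthetase gene, the window held an E-box 146 bases and a STAT5 site 88 bases before the RefSeq start, and CARE matches 112 bases before and 9 bases after it. This window lies wholly inside the GENCODE interval of the gene (111033144 to 111057664), so these distances hold for the RefSeq start only. In Yars, the tyrosyl-tRNA synthetase gene, a CARE match began 3 bases after the start. Aars did not pass the test for a change in NK cells given below. Eprs, which did pass, had a window with none of the 3 motifs and is not shown.

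Of the 39 genes, 28 had such a sequence, 13 synthetases and 15 initiation factors. An E-box lay in a window of 9 of the 28 (32.1%), against 8.09% of 27025 genes and 12.4% of the 7549 genes that were also tested in NK cells. CARE matches lay in 5 of the 28 (17.9%), against 4.51% and 2.58% of the same backgrounds. All 5 were synthetase genes (Aars, Gars, Iars, Tars and Yars), and none of the 15 initiation factor genes held one. The STAT5 site was in 4 of the 28 (14.3%), against 9.55% and 8.48%. A match describes these letters only, and some genes have several listed starts and so more than 1 window.

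All 39 genes passed the filter on low values in both cell types. In vehicle NK cells their mean levels ran from 2.04 RPKM for Eif2b3, a subunit of eIF2B, to 152 for Eif5a, which helps the ribosome through difficult peptide bonds. Eif4a1 (142), Eif4g2 (119.6), Eif4a2 (94.5) and Eif5 (80.2) followed Eif5a, and the highest synthetase was Sars, for serine, at 40.6 ± 5.16 RPKM (SD, n = 3). The levels of Eif5a, 139 to 178 across the vehicle NK libraries, and of Eif4a1, 135 to 148, overlapped, so their order lay within the spread between libraries. Together the 39 genes made up 0.440% to 0.551% of summed RPKM in the 10 libraries.

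Between vehicle ILC1 and vehicle NK cells, levels overlapped for 32 of the 39 genes. The NK and ILC1 tables were made separately, so this is a description without a test. ILC1 lay below NK cells without overlap for 6 genes, Cars, Eif4ebp2, Iars, Mars, Sars and Yars, where 30.5% of all genes tested in both cell types did so. Vars, the valyl-tRNA synthetase, was the only one of the 39 above, at 43.8 to 87.9 RPKM in ILC1 and 32.8 to 39.3 in NK cells, and 5.43% of all genes lay above without overlap.

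In splenic NK cells most of these genes were lower with tofacitinib, by small amounts, and 4 passed the test. The log2 change of RPKM was below 0 for 36 of the 39 genes, where 52.4% of all 9472 genes tested were below 0, and the median change was -0.21 against -0.01 over all genes. At adjusted p under 0.05 (limma, Benjamini-Hochberg over all genes tested), Eif4a1, Eprs, Lars and Yars fell (10.3% of the 39, background 3.02%) and none rose (background 1.79%). At an unadjusted p under 0.05, 19 were lower (background 13.1%) and 1, Eif4a2, was higher (background 10.2%). For 23 genes both tofacitinib libraries lay below all 3 vehicle libraries, as for 23.9% of all genes, and for Eif4a2 both lay above, as for 20.2%. These calls depended on single libraries, as did those over all genes. Without vehicle replicate 3, 4 of the 39 genes were called lower (3.7% of all genes). Without vehicle replicate 2 there were 7 (4.65%), and without vehicle replicate 1 there were 0 (1.32%). Leaving out tofacitinib replicate 1 or 2 leaves 1 treated library, so calls are not given. The median of the 39 genes minus that of all genes was then -0.15 and -0.22.

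Vehicle replicate 2 was the highest of the 5 NK libraries for 33 of the 39 genes. Without it the median change of the 39 genes was -0.17 and 33 were below 0. The genes together summed to 1559, 1717 and 1509 RPKM in the vehicle NK libraries and to 1415 and 1426 RPKM in the tofacitinib libraries, which lay below without overlap. RPKM summed over all genes did so too, at 327672, 346031 and 309388 with vehicle and 304981 and 304624 with tofacitinib. The share of the 39 genes in that sum was 0.476%, 0.496% and 0.488% with vehicle and 0.464% and 0.468% with tofacitinib. As these are bulk samples, fewer cells that express a gene and less RNA in each cell cannot be told apart. Summed NK cell markers moved in the same direction, from 2027 to 2358 RPKM over 6 genes in vehicle libraries to 1552 and 1572 with tofacitinib, and their part in the result was not tested.

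**Figure D1:**
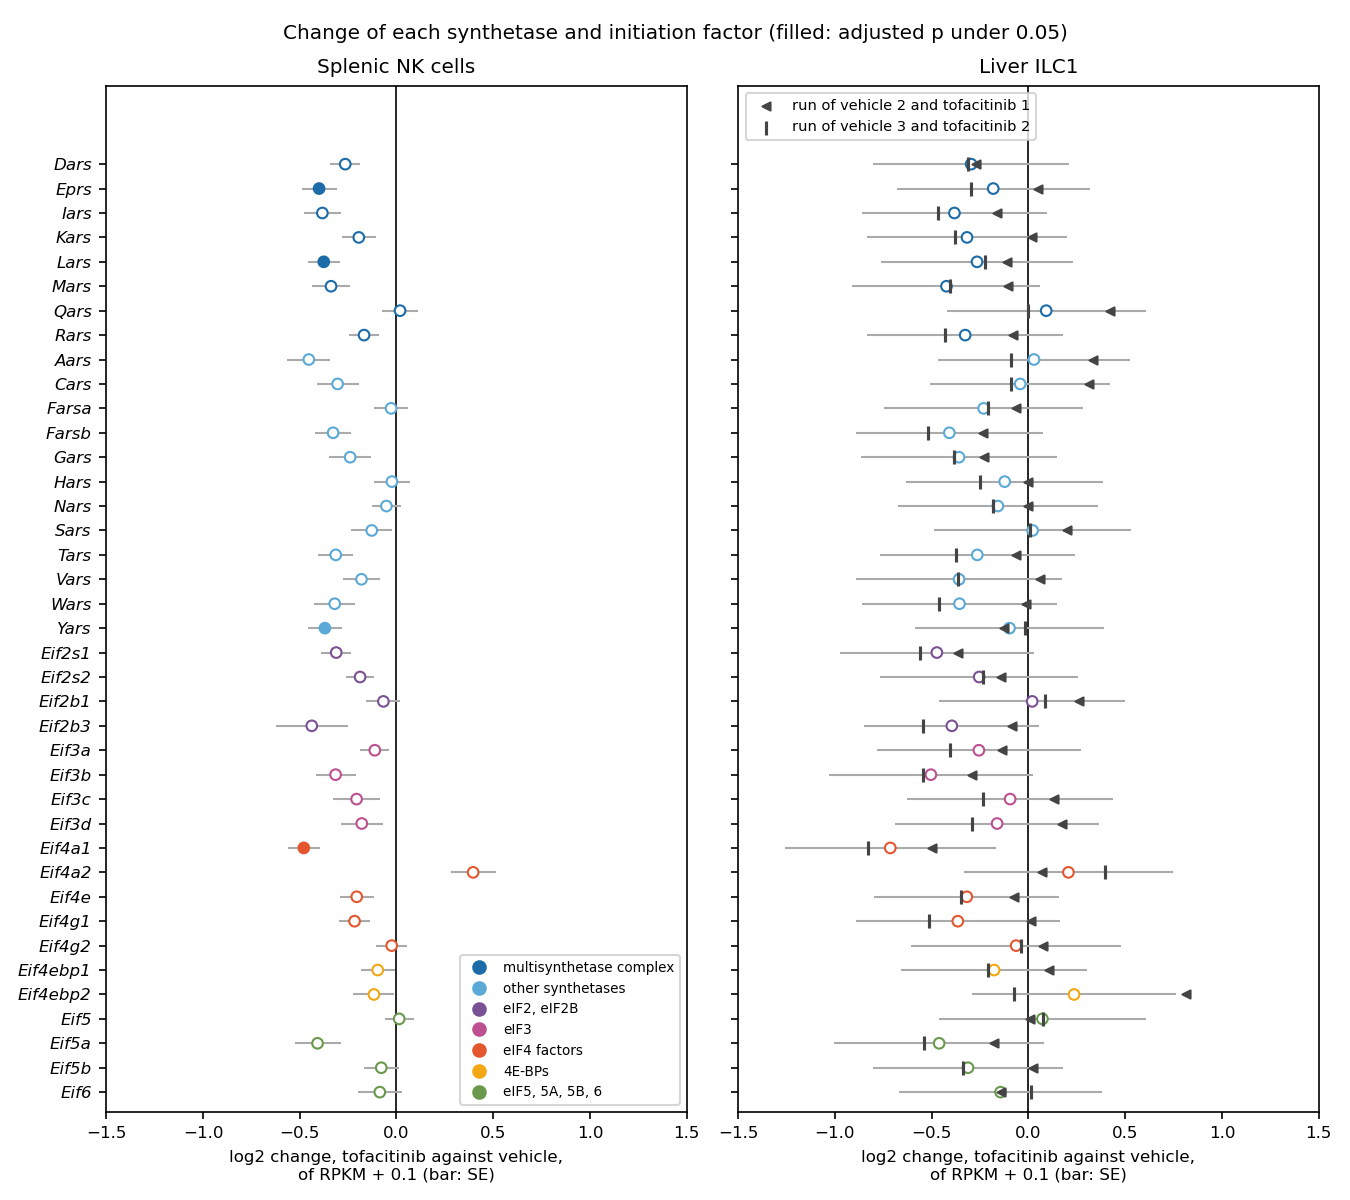
Log2 change of RPKM + 0.1 with tofacitinib against vehicle for each of the 39 genes in NK cells (left) and ILC1 (right), with bars for the standard error and colours for the role of the gene. Filled circles mark adjusted p under 0.05, which only Eprs, Lars, Yars and Eif4a1 in NK cells reached, and in ILC1 the triangles and ticks give the change within each of the 2 shared sequencing runs.

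Of the 8 synthetases of the multisynthetase complex, 7 had both tofacitinib libraries below all vehicle libraries in NK cells (87.5%, background 23.9%). The median log2 change of the 8 was -0.30, and 2 were called lower (25%, background 3.02%). Eprs (chromosome 1, 185363044 to 185428360), which charges tRNA with glutamate and with proline, was at 17.4, 18.9 and 16.1 RPKM in the vehicle NK libraries and at 13.0 and 13.4 RPKM with tofacitinib. The treated libraries lay below every vehicle library, and the log2 change was -0.40 (SE 0.09, adjusted p = 0.0443). Lars (chromosome 18, 42202298 to 42262194) charges leucine tRNA and is also known as a sensor of leucine for the growth kinase complex mTORC1. Its levels were 19.1, 18.6 and 17.1 RPKM with vehicle and 14.3 and 13.8 RPKM with tofacitinib. This was a fall without overlap, of -0.38 on the log2 scale (SE 0.08, adjusted p = 0.0415).

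The isoleucyl-tRNA synthetase Iars was at 14.0, 14.7 and 13.0 RPKM with vehicle and at 9.96 and 11.3 RPKM with tofacitinib (log2 -0.38, adjusted p = 0.0565). The methionyl enzyme Mars was at 17.9, 21.3 and 17.7 RPKM and at 14.4 and 15.5 RPKM (log2 -0.34, adjusted p = 0.0905), and the aspartyl enzyme Dars at 18.9, 20.2 and 18.8 RPKM and at 16.3 and 15.8 RPKM (log2 -0.26, adjusted p = 0.0891). These 3 genes missed the threshold although their treated libraries lay below all vehicle libraries. Kars and Rars, for lysine and arginine, lay lower without overlap too, with log2 changes of -0.19 and -0.17. Qars, the glutaminyl-tRNA synthetase and the member of the complex with the highest vehicle level, did not share this pattern. It stood at 35.5, 40.6 and 33.8 RPKM with vehicle and at 37.1 and 36.9 RPKM with tofacitinib, within the vehicle range (log2 0.02, adjusted p = 0.924).

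All 12 synthetases outside the complex had a log2 change below 0 in NK cells (background 52.4%), with a median of -0.27. Of these, 1 passed the test (8.33%, background 3.02%). Yars (chromosome 4, 129189760 to 129219607) was at 15.8, 15.7 and 14.2 RPKM with vehicle and at 11.4 and 12.1 RPKM with tofacitinib. The groups did not overlap, and the log2 change was -0.37 (SE 0.09, adjusted p = 0.0491). Aars (chromosome 8, 111033144 to 111057664) had the largest fitted fall of the cytosolic synthetases: 16.1, 20.1 and 16.1 RPKM with vehicle and 12.5 and 12.8 RPKM with tofacitinib. Its treated libraries lay below all vehicle libraries, but the high value of vehicle replicate 2 widened the vehicle spread, and the change of -0.45 had a standard error of 0.11 and an adjusted p of 0.0553. Without that library the change was -0.35 and the adjusted p 0.0271. Of the 50-base stretches of Aars transcripts, 20.1% also occur in transcripts of Exosc6, so the level of Aars is uncertain.

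Farsb, the beta subunit of the phenylalanyl enzyme, was at 11.1, 11.8 and 10.4 RPKM with vehicle and at 8.53 and 9.12 RPKM with tofacitinib (log2 -0.33, adjusted p = 0.0793). The alpha subunit Farsa, which pairs with it in 1 enzyme, had a log2 change of -0.03 (adjusted p = 0.880) and treated libraries within the vehicle range. The threonyl enzyme Tars was at 23.6, 27.1 and 26.5 RPKM and at 19.7 and 21.7 RPKM (log2 -0.31, adjusted p = 0.0853). Sars was at 39.7, 46.2 and 36.0 RPKM with vehicle and at 37.6 and 36.3 RPKM with tofacitinib, which overlapped (log2 -0.13, adjusted p = 0.500). Of the other members of this group, Cars (log2 -0.30) and Wars (-0.32) lay lower without overlap, whereas Gars, Hars, Nars and Vars overlapped, with log2 changes of -0.24, -0.02, -0.05 and -0.18.

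**Figure D2:**
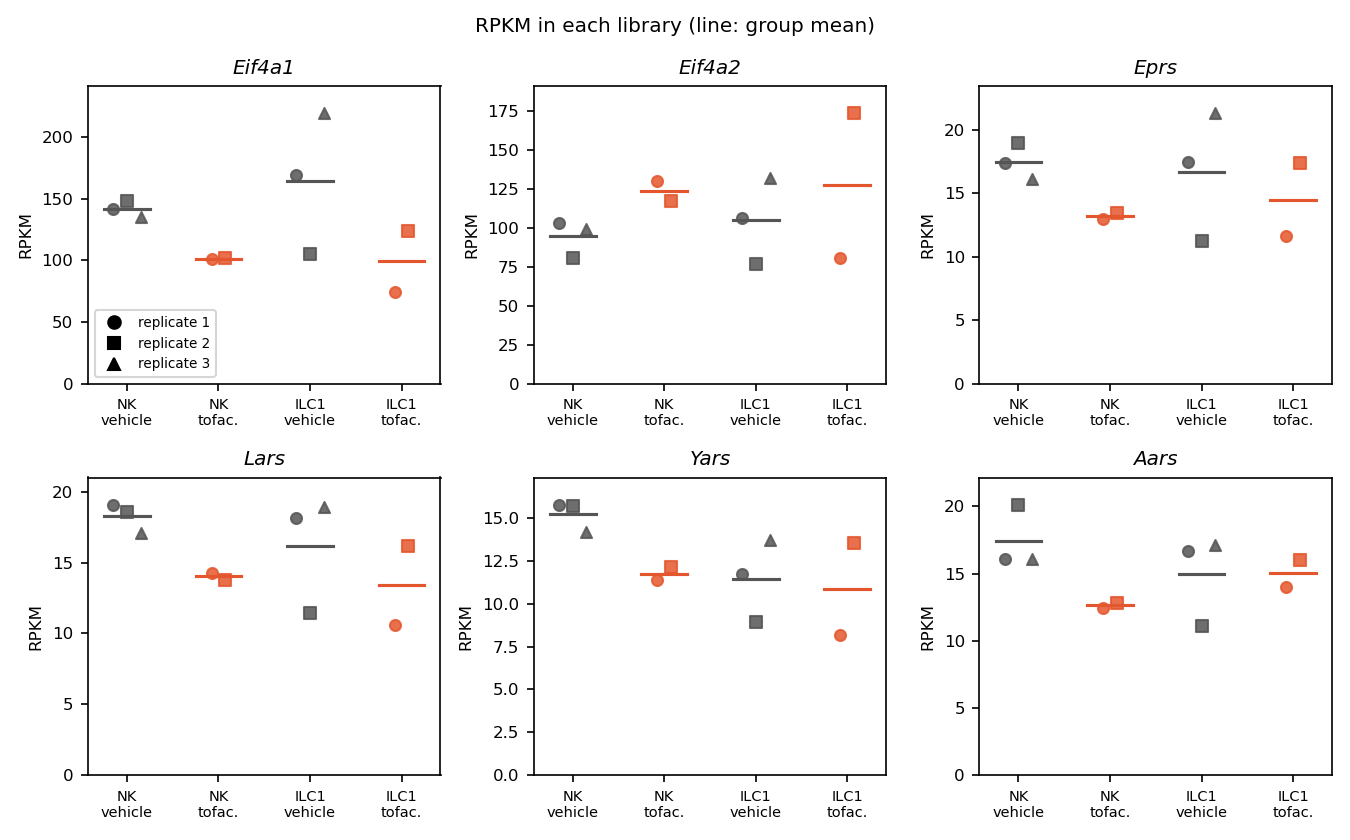
RPKM of 6 of the genes in each library, by cell type and treatment, with the replicate number as the symbol and the group mean as a line. In NK cells both tofacitinib libraries lie below the vehicle libraries for Eif4a1, Eprs, Lars, Yars and Aars and above them for Eif4a2, while in ILC1 the groups overlap for all 6.

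Among the initiation factors the cap-binding group held the largest fall in NK cells and, of the 19 described here, the only gene with both treated NK libraries above all vehicle libraries. These were Eif4a1 and Eif4a2, close relatives that encode DEAD-box helicases that unwind messenger RNA as part of eIF4F. Eif4a1 (chromosome 11, 69666936 to 69672423) was at 142, 148 and 135 RPKM in the vehicle NK libraries and at 101 and 102 RPKM with tofacitinib. The groups were far apart for their spread, and the log2 change was -0.48 (SE 0.08, adjusted p = 0.0175), the lowest adjusted p of the 39 genes. Eif4a2 (chromosome 16, 23107444 to 23114136) was at 103, 80.8 and 99.5 RPKM with vehicle and at 130.2 and 117 RPKM with tofacitinib, above all vehicle libraries. Its change of 0.40 (SE 0.12, adjusted p = 0.0882) missed the threshold, and without vehicle replicate 2, in which it was lowest, the change was 0.29 with an adjusted p of 0.0450.

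The ratio of Eif4a1 to Eif4a2 was described after these values had been seen and was not tested. It was 1.38, 1.83 and 1.36 in the vehicle NK libraries and 0.775 and 0.871 in the tofacitinib libraries. In ILC1 it was 1.59, 1.37 and 1.66 with vehicle and 0.924 and 0.712 with tofacitinib, so that in both cell types Eif4a1 was the higher of the pair in every vehicle library and the lower in every treated library. The sum of the pair overlapped between the groups, at 245, 229 and 235 RPKM in vehicle NK libraries and 231 and 219.8 RPKM in treated ones. Of the 50-base stretches of Eif4a1 transcripts, 65.3% also occur in transcripts of other genes, nearly all in the pseudogene Eif4a-ps4, so its level is uncertain. Eif4a2 shared 14.0% with other genes, and the pair shared 0% with each other.

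**Figure D3:**
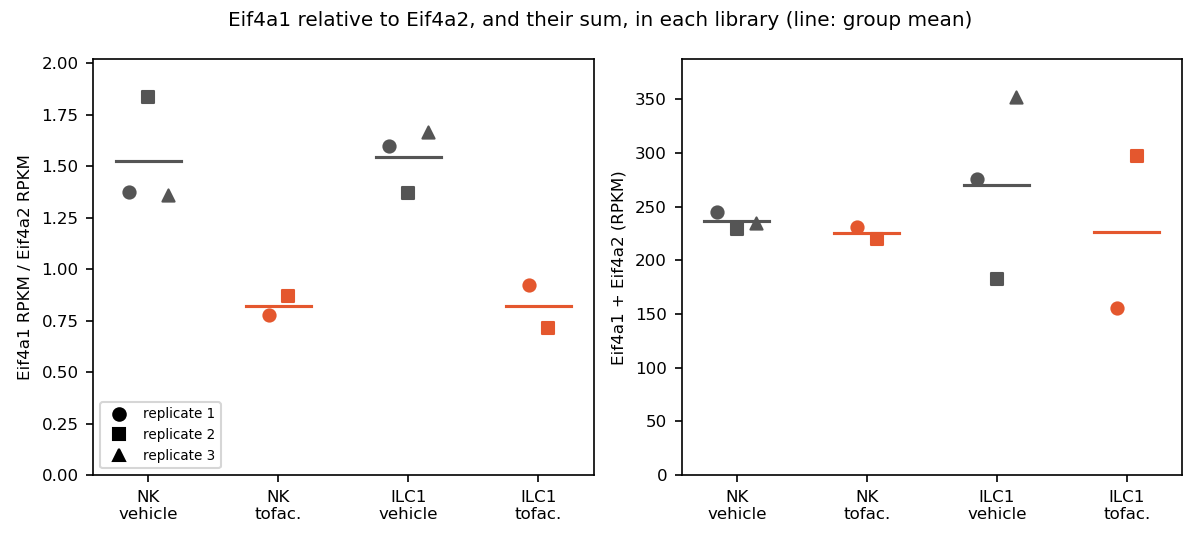
Ratio of Eif4a1 to Eif4a2 RPKM (left) and the sum of their RPKM (right) in each library, with the replicate number as the symbol and the group mean as a line. The ratio lies between 1.36 and 1.83 in the vehicle libraries and between 0.712 and 0.924 in the tofacitinib libraries of both cell types.

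The rest of the cap-binding group had smaller changes in NK cells. Eif4e, which binds the cap, and Eif4g1, the scaffold of eIF4F, lay lower without overlap, with log2 changes of -0.21 (adjusted p = 0.201) and -0.22 (adjusted p = 0.156), and Eif4g2, a relative of the scaffold that does not bind Eif4e, was at -0.02. The 4E-binding proteins hold Eif4e back when mTORC1 is inactive. Eif4ebp2 was at 61.8, 74.3 and 59.1 RPKM with vehicle and at 61.5 and 58.0 RPKM with tofacitinib, which overlapped (log2 -0.12, adjusted p = 0.538), and Eif4ebp1 had a log2 change of -0.10.

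Eif2s1, the alpha subunit of eIF2 and the site that stress kinases phosphorylate, was at 17.9, 18.5 and 17.1 RPKM with vehicle and at 14.4 and 14.3 RPKM with tofacitinib. The libraries did not overlap, but the change of -0.31 (SE 0.08, adjusted p = 0.0593) missed the threshold. The beta subunit Eif2s2 was at 27.6, 28.7 and 27.3 RPKM and at 24.1 and 24.8 RPKM (log2 -0.19, adjusted p = 0.171). Of the subunits of the exchange factor eIF2B, Eif2b3 had a log2 change of -0.44 at low levels of 1.45 to 2.27 RPKM (SE 0.18, adjusted p = 0.198), and Eif2b1 one of -0.07. All 4 genes of this group were below 0 (background 52.4%), and none passed the test (background 3.02% lower and 1.79% higher).

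The 4 eIF3 subunits among the 39 genes were also all below 0 (background 52.4%) without a call. Eif3b, a core subunit, was at 47.7, 59.7 and 49.6 RPKM with vehicle and at 42.4 and 41.3 RPKM with tofacitinib (log2 -0.31, adjusted p = 0.117), without overlap. Eif3c, which had the highest vehicle level of these 4, was at 73.5, 87.7 and 64.6 RPKM and at 64.4 and 65.0 RPKM, which overlapped (log2 -0.21, adjusted p = 0.337). Eif3a and Eif3d had log2 changes of -0.11 and -0.18.

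Eif5a was at 139, 178 and 139.9 RPKM with vehicle and at 110.3 and 118 RPKM with tofacitinib. Its treated libraries lay below all vehicle libraries, and the log2 change was -0.41 (SE 0.12, adjusted p = 0.0873). The factors of the last steps of initiation had small changes: Eif5, which triggers GTP hydrolysis by eIF2, was at 0.01, Eif5b, which joins the ribosomal subunits, at -0.08, and Eif6, which keeps the large subunit apart, at -0.09 on the log2 scale. All 3 overlapped between the groups.

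In liver ILC1 the same genes leaned lower as well, but none passed the test in a spread between libraries that was far wider. The log2 change was below 0 for 32 of the 39 genes, where 48.2% of all 9366 genes tested were below 0, and the median was -0.26 against 0.01 over all genes. None was called lower (background 0.278%) or higher (background 0.192%) by limma, 0 had an unadjusted p under 0.05 (background 1.41% lower and 0.811% higher), and for 0 did the groups lie apart (background 3.43% below and 2.07% above). The median standard error of a log2 change was 0.49 in ILC1 and 0.10 in NK cells. Leaving out tofacitinib replicate 1 left 15 genes below 0 and a median of 0.05, beside 0.29 over all genes. Leaving out vehicle replicate 2 left 39 below 0 and a median of -0.49, beside -0.24 over all genes.

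Much of this spread followed the sequencing run. In the run that stood apart the median change of the 39 genes was -0.01, beside 0.22 over all genes, and in the run shared by the vehicle 3 and tofacitinib 2 libraries it was -0.30, beside -0.03 over all genes. Relative to all genes the median was therefore -0.24 and -0.26 in the 2 runs. Within both runs 21 of the 39 genes were lower (background 19.4%) and 4 were higher (background 38.8%). Without the run that stood apart, 29 genes were below 0 and the median was -0.19. The members' median minus that of all genes lay between -0.27 and -0.23 in ILC1, and between -0.22 and -0.15 in NK cells, in the main fit and every alternative run.

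Eif4a1 was the gene with the largest change in ILC1 too. It was at 169, 105 and 219.8 RPKM with vehicle and at 74.6 and 124 RPKM with tofacitinib. The groups overlapped through vehicle replicate 2, and the log2 change was -0.71 (SE 0.54, adjusted p = 1.00). Within the shared runs the changes were -0.50 and -0.83. With the run as a block, which takes up the differences between runs, the change was -0.66 with a limma adjusted p of 0.0315. Vehicle replicate 1 was alone in its run, so that fit rests on the shared runs only. With the run block Eif4a1 was the only one of the 39 called (background 2.34% lower and 1.99% higher). Eif4a2 was at 106, 77.0 and 132 RPKM with vehicle and at 80.8 and 174 RPKM with tofacitinib, with within-run changes of 0.07 and 0.39.

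Eif3b and Eif2s1 followed in size. Eif3b was at 59.4, 36.2 and 68.4 RPKM in vehicle ILC1 and at 29.5 and 46.8 RPKM with tofacitinib (log2 -0.50), and was lower by -0.29 and -0.55 within the runs. Eif2s1 was at 19.5, 13.5 and 26.5 RPKM and at 10.5 and 18.0 RPKM (log2 -0.47), with within-run changes of -0.36 and -0.56. Eif5a was at 167, 96.9 and 188 RPKM with vehicle and at 85.6 and 129 RPKM with tofacitinib (log2 -0.46, within runs -0.18 and -0.54). Each of these 3 was lower in both runs, with groups that overlapped over all 5 libraries.

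The synthetases called in NK cells overlapped between groups in ILC1. Eprs was at 17.5, 11.2 and 21.3 RPKM with vehicle and at 11.6 and 17.3 RPKM with tofacitinib (within runs 0.05 and -0.30). Lars was at 18.1, 11.4 and 18.9 RPKM and at 10.6 and 16.2 RPKM (within runs -0.11 and -0.22), and Yars at 11.7, 8.95 and 13.7 RPKM and at 8.20 and 13.5 RPKM (within runs -0.13 and -0.02). All 3 followed the run more than the treatment, being low in both libraries of the run that stood apart. Aars was at 16.7, 11.1 and 17.1 RPKM and at 14.0 and 16.0 RPKM, and its changes within runs had opposite signs (0.33 and -0.09).

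The other synthetases with values by library in NK cells fell on either side in ILC1. Mars was at 14.9, 8.29 and 13.1 RPKM with vehicle and at 7.71 and 9.86 RPKM with tofacitinib (within runs -0.10 and -0.40), Farsb at 11.3, 7.90 and 14.3 RPKM and at 6.69 and 9.91 RPKM (-0.24 and -0.52), and Iars at 10.4, 7.37 and 11.1 RPKM and at 6.57 and 7.99 RPKM (-0.16 and -0.47). Dars was at 21.2, 16.0 and 27.5 RPKM and at 13.2 and 22.2 RPKM (-0.27 and -0.31), and Tars at 21.3, 14.5 and 26.1 RPKM and at 13.8 and 20.0 RPKM (-0.06 and -0.38). These 5 were lower in both runs. Qars, at 30.7, 17.2 and 33.9 RPKM and at 23.0 and 33.8 RPKM, and Sars, at 26.6, 16.3 and 30.7 RPKM and at 18.8 and 30.8 RPKM, were not, with within-run changes of 0.42 and -0.00 and of 0.20 and 0.01.

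Of the other factors, Eif2s2 was at 27.6, 19.2 and 30.2 RPKM in vehicle ILC1 and at 17.4 and 25.6 RPKM with tofacitinib (within runs -0.14 and -0.24). Eif3c was at 68.2, 42.9 and 89.4 RPKM and at 47.1 and 76.0 RPKM, and its changes within runs, 0.13 and -0.23, had opposite signs. The highest fitted change of the 39 genes in ILC1 was that of Eif4ebp2, at 47.5, 23.4 and 54.9 RPKM with vehicle and at 41.3 and 52.2 RPKM with tofacitinib (log2 0.24, adjusted p = 1.00). Within the run that stood apart its change was 0.82, and within the other run -0.07.

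**Figure D4:**
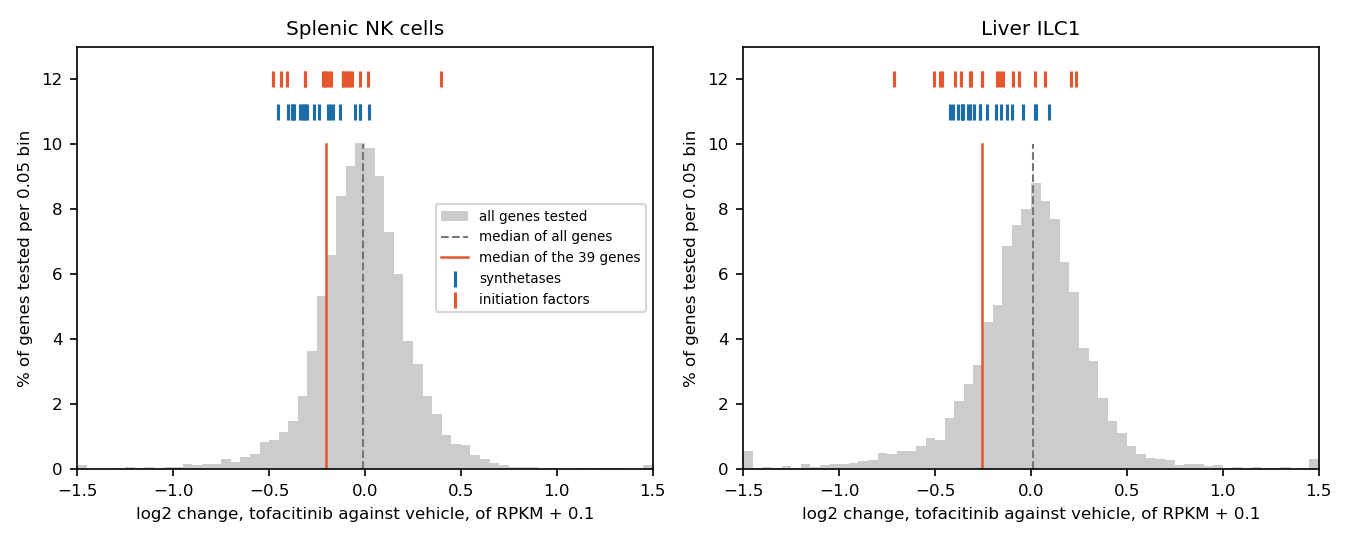
Distribution of the log2 change with tofacitinib over all genes tested (grey, per cent of genes in bins of 0.05, with changes beyond the axis gathered in the outermost bins), in NK cells (left) and ILC1 (right), with 1 tick for each synthetase and each initiation factor. The median of the 39 genes (solid line) lies at -0.21 in NK cells and -0.26 in ILC1, below the medians of all genes (dashed lines) at -0.01 and 0.01.

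The difference between the responses of the 2 cell types was tested directly as an interaction over the 8981 genes tested in both. None of the 39 genes passed (background 0.145%), and 0 had an unadjusted p under 0.05 (background 0.835%). The lowest p was that of Aars, whose log2 change was 0.48 higher in ILC1 than in NK cells (SE 0.47, limma adjusted p = 1.00). With errors of this size a difference as large as the changes themselves would not be detected, so it is not shown that the cell types responded alike or differently.

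Scaffold proteins, further initiation factors, and elongation and termination factors showed no call by limma with no block. The 3 scaffold proteins of the multisynthetase complex, Aimp1, Aimp2 and Eef1e1, had a median log2 change of -0.15 in NK cells and -0.58 in ILC1, and 0 of 3 were called or had an unadjusted p under 0.05 in either. Of 33 further initiation factors, 26 were below 0 in NK cells and 27 in ILC1, with medians of -0.09 and -0.08 (backgrounds 52.4% and 48.2% below 0). At an unadjusted p under 0.05, 4 of the 33 (12.1%) were lower in NK cells, a share near the background of 13.1%, and 0 in ILC1 (background 1.41%). The 7 elongation and termination factors had medians of -0.15 and -0.11, all 7 being below 0 in NK cells, of which 2 were lower at an unadjusted p under 0.05 (28.6%, background 13.1%). Etf1, the release factor, had the lowest p of these (log2 -0.31, adjusted p = 0.0862).

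The mitochondrial synthetases charge the tRNAs of the organelle. Of 17 listed, 15 were tested in each cell type and 0 were called by limma with no block, with median log2 changes of -0.09 in NK cells and 0.01 in ILC1. In NK cells 9 of the 15 were below 0 (background 52.4%). At an unadjusted p under 0.05, 3 were lower (background 13.1%) and 1, Hars2, was higher (background 10.2%). Hars2, for mitochondrial histidine, was at 11.3, 11.7 and 11.4 RPKM with vehicle and at 14.6 and 13.7 RPKM with tofacitinib (log2 0.30, adjusted p = 0.0726), without overlap. Its cytosolic relative Hars had a log2 change of -0.02. In ILC1 7 of the 15 were below 0 (background 48.2%). At an unadjusted p under 0.05, 1, Ears2, was lower there (background 1.41%) and 0 were higher (background 0.811%). Ears2 was at low levels in ILC1, 1.64 to 2.27 RPKM with vehicle and 0.941 and 1.08 with tofacitinib, without overlap (background 3.43%). Its log2 change was -0.90, and -0.74 and -0.87 within the runs. In ILC1 Lars2 was at 1312 and 1548 RPKM in the run that stood apart and at 123 to 226 RPKM in the other libraries. With the run as a block it was called higher (log2 0.56, adjusted p = 0.0326, background 1.99%), the only one of the 15, and with median scaling added the call was lost (adjusted p = 0.159). With no block and vehicle replicate 2, of the run that stood apart, left out, it was also called higher (log2 2.01, adjusted p = 0.00300), and without tofacitinib replicate 1 its change was -0.44. Ribosomal RNA reads were high and low in the same libraries as Lars2, and their part in this was not tested.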

How the data were processed

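RNA of sorted splenic NK cells and liver ILC1 was sequenced in 10 libraries, 3 vehicle and 2 tofacitinib per cell type. The authors prepared libraries with a NEBNext Ultra II kit, used CASAVA 1.8.2 for base calls, as their processing notes say, and mapped 50-base single reads with TopHat2 2.1.1 on the build mm10. Partek gave the RPKM values that the authors deposited, in 1 table of 24981 genes for each cell type. Their sample sheets, as deposited, add the count of alignments per library. The tables hold no reads per gene, so the counting error of a gene is unknown, and strand was not stated, so reads of overlapping antisense genes cannot be told apart. The authors' own comparison columns (fold changes, p-values) were not used.

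Log2(RPKM + 0.1) was compared between groups per cell type with a two-sided moderated test (limma 3.58.1 under R 4.3.3, with a variance trend), for genes with a group mean above 1 on that scale in at least 1 group, leaving out 1296 microRNA and small nucleolar RNA names. Limma stands in for the analysis of variance of the study. P-values were adjusted by Benjamini-Hochberg over all genes tested (threshold 0.05). The difference between cell types was an interaction term over all 10 libraries. The sample sheets give the run of each ILC1 library: libraries of a shared run departed from their groups together (r = 0.63 and 0.78 across genes, where the 2 treated libraries mirror each other by construction), so within-run changes and a fit with the run as a block are given beside the pooled values. ILC1 vehicle replicate 1 was alone in its run, so the changes of the run block fit rest on the shared runs only. The fits were tested on simulated data with independent noise and no run effect. That test does not cover libraries that depart together by run, and its interaction used the same noise in both cell types.

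Values by library are given for members called in either cell type, for those of smallest p in NK cells up to 12, and, per role group, for the member with the highest vehicle level in NK cells and the one with the largest change in ILC1, which gave 19 genes, and further genes are given as counts, ranges or examples chosen after their values were seen. The members, lists and tests were chosen with earlier results of these data known. Positions are from GENCODE M21 and promoters from RefSeq, which may place a start differently. Shared 50-base stretches were counted over all GENCODE transcripts: 18 members shared none, and the median was 0.278%.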

Additional observations from a re-analysis of the deposited data

How the results depend on the processing

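In NK cells the 4 genes called lower became 0 with no filter on low values and 0 with the own variance of each gene, where over all genes 1 and 0 genes were called lower, and they became 7 with quantile normalization. The 4 genes remained among those called lower with an offset of 1 (4 genes, 3.02% of all genes) and the stricter filter (6, 3.26%). They also remained with median scaling (6, 3.25%) and quantile normalization (3.9% of all genes). Leaving out single vehicle libraries gave 0 to 7 genes lower (1.32% to 4.65% of all genes) and 0 to 1 higher (0.623% to 3.75%). Libraries that share a replicate number share only that number (correlations of deviations 0.02 and 0.14 in NK cells, 0.16 and -0.63 in ILC1), and in NK cells the fit with the replicate block gave 16 genes lower and 1 higher (Eif4a2), beside 12.1% and 7.01% of all genes. A block by the replicate letter of the sample sheet, whose meaning is not given, gave 3 lower (Aars, Eprs and Mars) and 1 higher. Over all genes 3.85% were lower and 3.02% higher in that fit. Together with median scaling it gave 7 lower and 1 higher, beside 4% and 3.39% of all genes. In ILC1 the replicate block gave 0 calls among the 39 genes (0% lower and 0.0214% higher of all genes). The count of genes called lower went from 0 to 1 with quantile normalization (Eif4a1, limma adjusted p = 0.0492), beside 2% of all genes. It was also 1 with the run block (2.34% of all genes). With run block and median scaling it was 4 (Eif2s1, Eif3b, Eif4a1 and Farsb), beside 6.43% of all genes. At an unadjusted p under 0.05 it went from 0 to 18 with median scaling, where 10.6% of all genes did so, and the share of lower among all calls was 59.1% in the main fit and 81.6% with median scaling. Without single ILC1 libraries, 15 to 39 genes had a change below 0, while the median over all genes lay between -0.26 and 0.29. The alternatives that combine a block with median scaling or leave out a run were chosen after seeing the data. The interaction called 0 of the 39 genes under every alternative, with adjusted p values from 0.625. The cause of these changes was not tested. RPKM values carry no depth for single genes, and with 2 treated libraries a group mean rests on either one.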

Other observations

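Genes upstream and downstream of the initiation machinery were described as lists that hold no member of it. Of 13 listed genes for ATF4, the transcription factor of the amino acid response, and its known targets, 9 were tested in each cell type. Psat1, an enzyme of serine synthesis, was the only one called in NK cells by limma with no block (11.1% of the 9, background 3.02%). It was at 8.34, 9.64 and 8.21 RPKM with vehicle and at 5.86 and 5.71 RPKM with tofacitinib, a fall without overlap (log2 -0.58, SE 0.10, limma adjusted p = 0.0204). Without tofacitinib replicate 1 or 2 the adjusted p was 0.173 and 0.161, with changes of -0.60 and -0.56. In ILC1 Psat1 was at 12.8, 7.52 and 16.1 RPKM and at 6.46 and 7.34 RPKM, with changes of -0.22 and -1.12 within the runs. Phgdh, the enzyme of the first step of serine synthesis, was at 12.2, 15.3 and 14.3 RPKM in vehicle NK cells and at 11.0 and 11.1 RPKM with tofacitinib (log2 -0.32, adjusted p = 0.117). Atf4 itself was level in NK cells, at 69.1 to 73.4 RPKM with vehicle and 68.9 and 71.4 RPKM with tofacitinib.

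Of the 9 tested genes of the ATF4 list, 4 had both tofacitinib NK libraries below all vehicle libraries (background 23.9%). Another 3 had both above (background 20.2%): Ddit3 (log2 0.11), Sesn2 (log2 0.30) and Ddit4. In ILC1 2 of the 9 lay below (background 3.43%) and 1, Sesn2, above (background 2.07%). Ddit4, a target of ATF4 that encodes an inhibitor of mTORC1, had the largest of the rises in NK cells. It was at 24.5, 36.8 and 38.7 RPKM in vehicle NK cells and at 46.6 and 64.8 RPKM with tofacitinib, above all vehicle libraries (log2 0.75, adjusted p = 0.0709). In ILC1 it was at 28.6, 12.3 and 38.9 RPKM and at 36.4 and 62.3 RPKM, which overlapped, and rose within both runs by 1.56 and 0.68 (run block 1.12, adjusted p = 7.54e-05). Of 15 listed genes of mTORC1 and its inputs, 14 were tested and 0 were called in either cell type by limma. In NK cells 4 of the 14 were below 0 (background 52.4%), and at an unadjusted p under 0.05 there were 1 lower (background 13.1%) and 3 higher (background 10.2%). In ILC1 3 of the 14 were below 0 (background 48.2%). Tsc1, an inhibitor of mTORC1, was at 8.10, 8.46 and 8.65 RPKM in vehicle NK cells and at 10.3 and 9.74 RPKM with tofacitinib (log2 0.25, adjusted p = 0.134), and Pdcd4, which holds the eIF4A helicases back, was at 157, 144 and 152 RPKM and at 181 and 179 RPKM (log2 0.26, adjusted p = 0.114). Larp1, which represses messages of the translation machinery, was at 22.7, 25.8 and 23.7 RPKM and at 20.1 and 19.2 RPKM (log2 -0.29, adjusted p = 0.0864).

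The kinases that phosphorylate Eif2s1 and the subunits that reverse it gave 0 calls among 6 genes by limma with no block. Their medians were 0.00 in NK cells and 0.08 in ILC1. With the block by replicate letter, the subunit Ppp1r15a was called higher in NK cells (log2 0.41, limma adjusted p = 0.0316, background 3.02%). Eif2ak2, the kinase that senses double-stranded RNA, had the lowest p of these in NK cells, at 5.02, 4.38 and 5.25 RPKM with vehicle and at 3.77 and 3.55 RPKM with tofacitinib (log2 -0.40, adjusted p = 0.1002). Dhps and Dohh, the enzymes that make the hypusine residue of eIF5A, had log2 changes of 0.06 and -0.06 in NK cells, beside -0.41 for Eif5a itself. Apart from Psat1, the genes named here were chosen after their values had been seen.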
